A study of Mus musculus with 15 samples.

Results

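The 10 genes described here encode transcription factors that specify or maintain the identity of sensory neurons: Isl1, Pou4f1, Pou4f2, Pou4f3, Prrxl1, Tlx3, Prdm12, Shox2, Runx1 and Runx3. They were chosen by name for this known role, and all 10 were found among the 55573 genes of the count table. The libraries came from the right trigeminal ganglia (TG) of adult male CD1 mice, collected on day 12 after a corneal injury in which the epithelium and the anterior stroma were removed from a central area marked with a 2 mm trephine. Eye drops were given 3 times per day: 5 mice received vehicle (replicates 1 to 5), 5 received resolvin D6 (RvD6, replicates 6 to 10) and 5 received the RvD6 stereoisomer (RvD6si, replicates 11 to 15). The injury was common to all 3 groups and no uninjured TG is compared here. Each ganglion holds mostly neurons that do not reach the cornea. The 2 lipids are stereoisomers, and RvD6si is the form that was isolated from tears.

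Sensory neurons of the TG are placed in their lineage by a small set of transcription factors that act in sequence. The LIM-homeodomain factor Isl1 and the POU factor Pou4f1 (Brn3a) are switched on as precursors leave the cell cycle, and together they shut off earlier programs and start the genes of mature neurons. Prdm12 is needed for pain-sensing neurons to form, Prrxl1 (DRG11) and Tlx3 act in the wiring and transmitter choice of the same system, and Runx1, Runx3 and Shox2 then divide the neurons into those sensing pain, body position and touch. Many of these genes stay on in the adult ganglion.

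The promoters of Isl1, Prrxl1 and Prdm12 are shown because these 3 genes had the highest levels of the 10 and gave positive correlations with each other among ganglia of the same treatment, as described further on. Each run covers 250 bases before and 50 bases after the RefSeq start on GRCm38.p6, written 5′ to 3′ on the strand of the gene: chr13:116309639-116309938 on the minus strand for Isl1, chr14:32599677-32599976 on the plus strand for Prrxl1 and chr2:31639787-31640086 on the plus strand for Prdm12. Capitals mark TGTGGT, the core bound by Runx factors, in either orientation.
Isl1: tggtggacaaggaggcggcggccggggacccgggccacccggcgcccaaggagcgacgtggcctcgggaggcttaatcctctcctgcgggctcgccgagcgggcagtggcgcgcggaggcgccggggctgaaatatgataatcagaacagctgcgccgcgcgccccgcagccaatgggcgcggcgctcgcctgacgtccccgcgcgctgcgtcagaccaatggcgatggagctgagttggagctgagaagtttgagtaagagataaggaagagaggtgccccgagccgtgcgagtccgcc
Prrxl1: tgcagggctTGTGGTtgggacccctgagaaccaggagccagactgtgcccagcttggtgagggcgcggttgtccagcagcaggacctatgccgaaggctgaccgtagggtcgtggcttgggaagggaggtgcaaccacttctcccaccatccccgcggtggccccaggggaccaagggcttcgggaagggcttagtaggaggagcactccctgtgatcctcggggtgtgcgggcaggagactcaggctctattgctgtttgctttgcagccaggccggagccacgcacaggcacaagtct
Prdm12: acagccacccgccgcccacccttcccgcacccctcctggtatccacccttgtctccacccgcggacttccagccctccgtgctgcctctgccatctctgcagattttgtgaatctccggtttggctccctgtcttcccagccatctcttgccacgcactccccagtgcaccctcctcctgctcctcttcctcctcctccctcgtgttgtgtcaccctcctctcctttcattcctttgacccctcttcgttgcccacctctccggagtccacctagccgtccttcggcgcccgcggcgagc
These windows were searched on both strands for TAATTA, a homeodomain core, for TGTGGT, and for TATAAA, where the basal transcription machinery binds. No match overlapped another motif. Of 32851 promoters in the RefSeq table, 5.29% held TAATTA, 16.8% held TGTGGT and 13.6% held TATAAA. The Prrxl1 window had 1 match to TGTGGT, and the Isl1 and Prdm12 windows had no match to any of the 3. Sequences were found for 9 of the 10 genes, in 11 windows, and TATAAA occurred in the Shox2 window while TGTGGT also occurred in 1 of the 2 windows each of Runx1 and Runx3. A match describes these letters only and is not a measured binding site. GC content was 69.0% for Isl1, 63.7% for Prrxl1 and 63.7% for Prdm12, against a median of 52.7% over all promoters.

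Libraries held between 4125962 and 9903396 counted reads (median 7756538), and all 10 genes passed the filter on low counts. The ganglia carried the pan-neuronal genes in every library, and 9 of 13 Hox genes of the trunk, which mark ganglia below the head, were at 0 in all 15 libraries. Of the other 4, Hoxa5 and Hoxd9 had 2 and 26 reads in all, while Hoxd8 (170 reads) and Hoxd1 (2197 reads) were counted in every library, Hoxd1 at a mean of 19.1, 22.8 and 36.6 TPM in vehicle, RvD6 and RvD6si. The 5 RvD6 libraries differed from the others in content. Their summed level of 15 pan-neuronal genes was 9083 to 14831 TPM (counts divided by exonic length, then scaled to one common total), against 14615 to 17358 in vehicle and 15866 to 18866 in RvD6si. The sum hides a split, as 11 of the 15 genes had a log2 fold change below 0 for RvD6 against vehicle and 4 above 0. The lower sum was not particular to neuronal genes. The 7 satellite glial cell markers summed to 6543 to 7678 TPM in RvD6, against 8423 to 9826 in vehicle and 6975 to 9337 in RvD6si. Of these 7 markers, 5 had a log2 fold change below 0 for RvD6 against vehicle and 2 above 0. In the RvD6 libraries, 12 granulocyte and blood precursor markers summed to 1889 to 6474 TPM, against 327 to 1534 in vehicle and 156 to 373 in 4 RvD6si libraries, with RvD6si replicate 15 at 6218. Their 8 erythroid markers summed to 17533 to 32218 TPM, against 6793 to 15284 in vehicle and 3486 to 9079 in the same 4 RvD6si libraries, with replicate 15 at 41033. Skeletal muscle markers were highest in RvD6 replicates 8 and 9, at 1970 and 2839 TPM. RvD6 replicates 6 and 10, at 402 and 324 TPM, also lay above the ranges of vehicle (20 to 194) and RvD6si (17 to 54). RvD6 replicate 7, at 104 TPM, lay within the range of vehicle. Leaving out replicates 8 and 9, as done below, therefore removes only the libraries highest in muscle markers. Pituitary markers varied within every group. They summed to 24 to 9231 TPM in vehicle, with replicate 3 the highest, 559 to 4827 in RvD6 and 64 to 1948 in RvD6si. The part these contents played in the results below was not tested except where a value without some of these libraries is given. In whole ganglia, fewer cells of a type and less RNA per cell cannot be told apart.

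**Figure D1:**
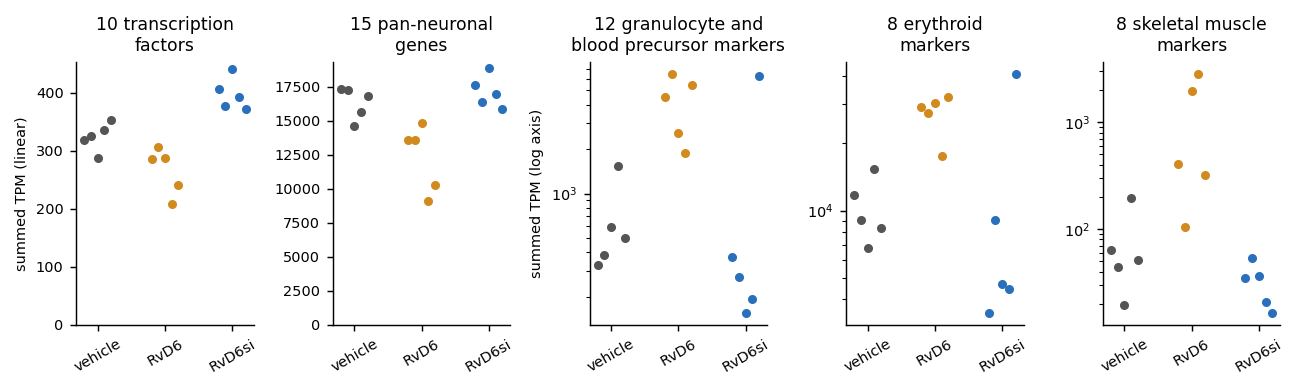
Summed level in TPM of 5 gene lists in each of the 15 ganglia (points, colored by treatment), on a linear axis for the transcription factors and pan-neuronal genes and on a log axis for the blood and muscle markers. RvD6 ganglia lie low for the sum of the neuronal genes and high for blood markers, and RvD6si replicate 15 lies with them for blood markers.

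Levels of different genes were compared per length, in TPM, and spanned a wide range. Isl1 was highest at 98.7 ± 18.7 TPM (mean ± SD, n = 15), followed by Prrxl1 at 82.4 ± 17.3 and Prdm12 at 67.7 ± 21.8. Isl1 exceeded Prrxl1 in 14 of 15 ganglia and Prrxl1 exceeded Prdm12 in 13, so these neighbors were ordered alike in most ganglia although their ranges overlapped. A step of 2.46-fold in TPM then separated Prdm12 from Pou4f3 in all 15 ganglia.

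The middle of the order was held by POU factors and Shox2. Pou4f3 averaged 27.5 ± 7.28 TPM and Pou4f1 24.7 ± 8.37, and Pou4f3 was the higher of these in 10 of 15 ganglia, so their order did not stand out from the spread. Shox2 followed at 12.2 ± 4.25 TPM and Runx1 at 6.14 ± 2.32. Runx3, Tlx3 and Pou4f2 were lowest, at 3.99 ± 1.62, 3.12 ± 2.28 and 2.79 ± 2.25 TPM, and neighbors among them kept their order in only 11 and 10 of the 15 ganglia. Read counts behind these levels ran from 638 to 2007 per library for Isl1 but from 3 to 27 for Tlx3 and from 5 to 91 for Pou4f2, so the last 2 genes had the least precise values. On GRCm38, the genes lie at chr13:116298281-116309689 (Isl1), chr14:32599407-32649246 (Prrxl1), chr2:31640037-31655795 (Prdm12), chr14:104461676-104467999 (Pou4f1), chr3:66971727-66981771 (Shox2), chr16:92601466-92826149 (Runx1), chr4:135120652-135177990 (Runx3), chr11:33200752-33203589 (Tlx3) and chr8:78433010-78436645 (Pou4f2), with counts taken over all their annotated exons, untranslated ends included. The order of the 10 genes was the same when levels were set per length with TMM-scaled library sizes and when any 1 ganglion was left out.

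**Figure D2:**
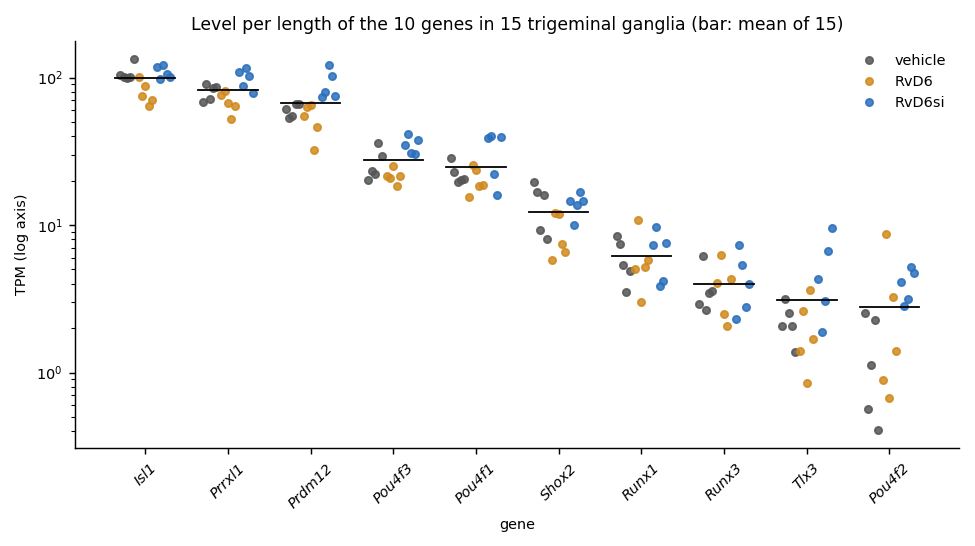
Level per length (TPM, log axis) of the 10 genes in each of 15 ganglia, ordered by the mean over all ganglia (bar) and colored by treatment. Isl1, Prrxl1 and Prdm12 lie near the top and Runx3, Tlx3 and Pou4f2 overlap at the bottom.

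Treatment groups were compared gene by gene in CPM (counts scaled to one common total with TMM factors), with the quasi-likelihood test of edgeR over 16567 genes, Benjamini-Hochberg adjustment and a threshold of 0.05. None of the 10 genes passed this threshold for either lipid against vehicle or for RvD6si against RvD6. Over all genes, 0.67% passed for RvD6si against vehicle, 0% for RvD6 against vehicle and 0.235% for RvD6si against RvD6. DESeq2 also called 0 of the 10 genes in each comparison. For RvD6si against vehicle it gave Pou4f2 and Tlx3 no adjusted p, so these genes could not be called there. Over all genes it called 903, 369 and 189. It was given all 55573 genes, those without reads included, so no share of genes tested is set beside these counts. At an unadjusted p below 0.05 in edgeR, 0 of the 10 genes were reached for RvD6si against vehicle, where the share of all genes was 8.69% higher and 7.3% lower. For RvD6 against vehicle 2 were lower, where all genes gave 7.63% higher and 5.99% lower. For RvD6si against RvD6 3 were higher, where all genes gave 4.18% higher and 4.64% lower. The comparisons with vehicle share the same 5 control ganglia. The 3 comparisons are given for each gene in the order of the roles above.

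Isl1, the LIM-homeodomain factor that acts at the start of the sensory program and was the most expressed of the 10, had its highest values in vehicle ganglia. In vehicle, replicates 1 to 5 gave 169, 162, 181, 173 and 230 CPM. In RvD6, replicates 6 to 10 gave 180, 118, 157, 109 and 120 CPM, and in RvD6si, replicates 11 to 15 gave 165, 146, 184, 159 and 155 CPM. Of the RvD6 ganglia, 4 lay below all vehicle ganglia and replicate 6 lay among them, while 3 of the RvD6si ganglia lay below all vehicle ganglia. The log2 difference of RvD6 from vehicle was -0.42 ± 0.15 (SE, 95% interval -0.73 to -0.10, adjusted p = 0.238 in edgeR). Without the muscle-rich RvD6 replicates 8 and 9 it was -0.40, and scaled to the pan-neuronal genes it was -0.19 ± 0.16. For RvD6si against vehicle the log2 difference was -0.18 (95% interval -0.49 to 0.14) and for RvD6si against RvD6 0.24 (-0.07 to 0.56). In TPM, Isl1 averaged 108 ± 14.3 in vehicle, 79.7 ± 14.6 in RvD6 and 109 ± 11.0 in RvD6si, so only the lower level in RvD6 appeared on both scales.

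Pou4f1, the POU factor that pairs with Isl1, was close among vehicle ganglia except for the higher replicate 1, and split among RvD6si ganglia. Vehicle replicates gave 54.9, 43.6, 42.4, 41.1 and 41.6 CPM and RvD6 replicates 32.7, 47.7, 49.3, 37.0 and 37.4 CPM. RvD6si replicates gave 63.9, 70.8, 39.5, 28.5 and 71.1 CPM, so 3 lay above all vehicle ganglia and 2 below them. The log2 difference of RvD6si from vehicle was 0.29 ± 0.22 (SE, adjusted p = 0.564 in edgeR). The direct difference between RvD6si and RvD6 was 0.42 on the log2 scale with an interval of -0.05 to 0.89.

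Pou4f2 and Pou4f3, the paralogs of Pou4f1 best known from retinal ganglion cells and from hair cells of the inner ear, were the only genes of the 10 with groups that did not overlap in CPM, and the same pairs of groups did not overlap in TPM. Pou4f2 gave 3.31, 0.743, 1.67, 3.15 and 0.572 CPM in vehicle, 1.30, 11.1, 0.971, 4.44 and 1.94 CPM in RvD6 and 4.66, 3.40, 3.83, 6.34 and 5.87 CPM in RvD6si. All 5 RvD6si ganglia lay above all vehicle ganglia, an arrangement seen for 2.45% of all genes tested, with 2.46% the other way. The RvD6 ganglia overlapped both other groups, and replicate 7 was the highest of all 15. The log2 difference of RvD6si from vehicle was 1.34 ± 0.65 (SE, 95% interval -0.02 to 2.69, adjusted p = 0.318 in edgeR), and that of RvD6 from vehicle was 1.07 (-0.28 to 2.42). Without RvD6 replicate 7 the latter was 0.19, and the log2 difference of RvD6si from RvD6 went from 0.27 to 1.15, with no other left-out ganglion moving a fold change of this gene as far.

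Pou4f3 gave 19.8, 22.5, 24.6, 37.4 and 30.9 CPM in vehicle, 23.4, 19.9, 27.2, 18.9 and 22.2 CPM in RvD6 and 29.5, 37.4, 27.8, 27.8 and 34.8 CPM in RvD6si. All 5 RvD6si ganglia lay above all RvD6 ganglia, an arrangement seen for 0.712% of all genes tested, with 1.1% the other way, and vehicle ganglia spread over both. RvD6si differed from RvD6 by 0.49 ± 0.20 on the log2 scale (SE, 95% interval 0.08 to 0.91, adjusted p = 0.455 in edgeR). Scaled to the pan-neuronal genes it was 0.14, and without RvD6 replicates 8 and 9 it was 0.53. For RvD6 against vehicle none of the 10 genes was free of overlap, where all genes gave 2.15% above and 1.62% below. Pou4f1 shared at most 71 bases in a row with Pou4f2 and 41 with Pou4f3 in their annotated transcripts, both shorter than a read of 75 cycles. These are exact matches only, and whether reads were placed on the wrong paralog was not tested.

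**Figure D3:**
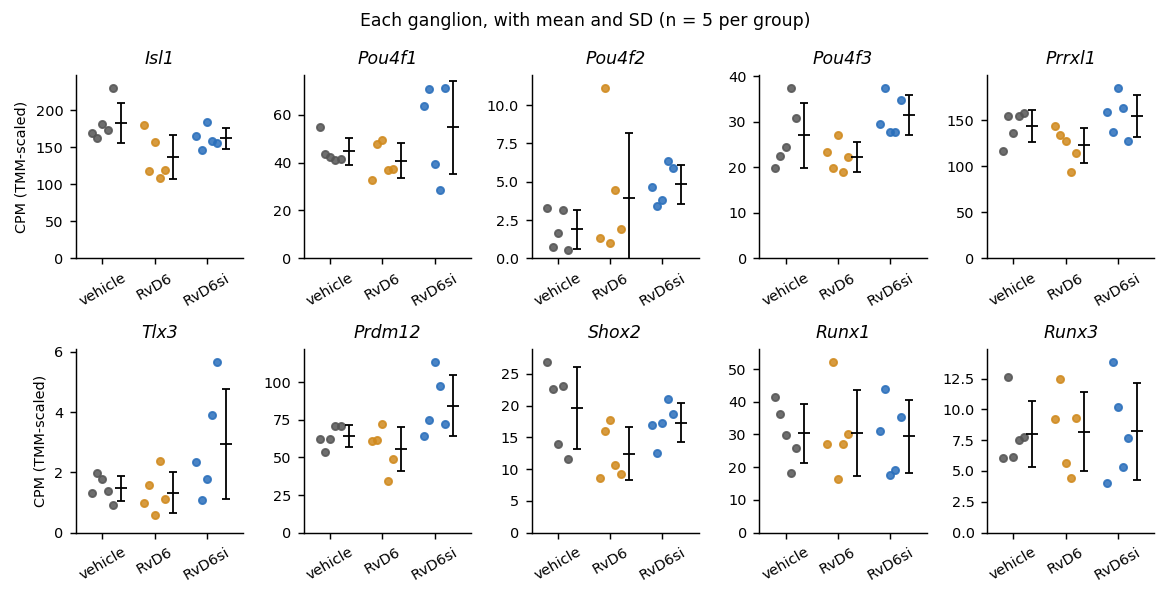
CPM of each of the 10 genes in every ganglion (points, in replicate order from left to right) by treatment, with the group mean and SD (black, n = 5, SD bars end at the axis where they would pass below 0). Pou4f2 in RvD6si lies above vehicle without overlap, Pou4f3 in RvD6si lies above RvD6 without overlap, and the other genes overlap in every pair of groups in CPM.

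Prdm12, a zinc-finger factor without which pain-sensing neurons do not form, was higher in RvD6si than in RvD6 ganglia before adjustment. Vehicle ganglia gave 62.1, 53.4, 62.5, 71.0 and 70.9 CPM, RvD6 ganglia 61.1, 61.7, 72.0, 34.1 and 49.2 CPM, and RvD6si ganglia 64.2, 74.7, 113, 97.3 and 72.0 CPM. Of the RvD6si ganglia, 4 lay above all vehicle ganglia and 3 above all RvD6 ganglia, and RvD6 replicate 9 was the lowest of all. The log2 difference of RvD6si from RvD6 was 0.60 ± 0.20 (SE, 95% interval 0.19 to 1.01, adjusted p = 0.320 in edgeR), the smallest unadjusted p among the 10 genes. It was 0.56 without RvD6 replicates 8 and 9, 0.53 with the granulocyte score as a covariate and 0.28 scaled to the pan-neuronal genes. Against vehicle, RvD6si differed by 0.40 (-0.01 to 0.81) and RvD6 by -0.20 (-0.61 to 0.21) on the log2 scale. The strand was not used in counting, and 8.09% of the Prdm12 exonic length overlaps the opposite-strand gene Gm13425. In TPM, Prdm12 was 73.9 to 121 in RvD6si, above all ganglia of vehicle (53.1 to 66.1) and of RvD6 (32.2 to 64.8), whereas in CPM these groups overlapped. TPM carries no TMM factor, and the share of all genes without overlap in TPM was not computed. On this scale Prrxl1 also stood higher in RvD6si, with means of 80.4 TPM in vehicle and 98.7 in RvD6si, against 144 and 154 CPM. The separation in TPM is therefore not read as a result about Prdm12.

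Prrxl1, a paired-like homeodomain factor of sensory neurons, moved over a narrow range. Vehicle ganglia gave 116, 154, 136, 154 and 158 CPM, RvD6 ganglia 144, 134, 127, 94.2 and 115 CPM, and RvD6si ganglia 159, 137, 185, 164 and 127 CPM. Groups overlapped in each pair, and RvD6 replicate 9 was again the lowest. RvD6si differed from RvD6 by 0.33 ± 0.14 on the log2 scale (SE, 95% interval 0.03 to 0.63, adjusted p = 0.511 in edgeR), and it was -0.01 when scaled to the pan-neuronal genes.

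Tlx3, a homeobox factor that favors a glutamatergic fate, was among the least counted genes. Vehicle ganglia gave 1.30, 1.98, 1.78, 1.37 and 0.915 CPM, RvD6 ganglia 0.973, 1.59, 0.582, 2.39 and 1.11 CPM, and RvD6si ganglia 2.33, 1.1, 1.79, 3.89 and 5.64 CPM. RvD6si replicates 14 and 15 were the highest of all 15, and replicates 12 and 13 were within the range of vehicle. RvD6si gave a log2 difference of 0.98 ± 0.56 from vehicle and 1.13 ± 0.57 from RvD6 (SE, adjusted p = 0.408 and 0.589 in edgeR), with intervals of -0.19 to 2.16 and -0.07 to 2.32 that leave both no difference and a large one possible at this depth. Without RvD6si replicate 15 the differences were 0.62 and 0.77.

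Shox2, a homeobox factor of touch-sensing neurons, was lower in RvD6 than in vehicle ganglia before adjustment. Vehicle ganglia gave 26.8, 22.5, 14.0, 23.2 and 11.6 CPM, RvD6 ganglia 8.65, 16, 17.7, 10.6 and 9.29 CPM, and RvD6si ganglia 16.9, 12.6, 17.2, 21 and 18.7 CPM. The vehicle ganglia themselves fell into a higher set of 3 and a lower set of 2, and 3 RvD6 ganglia lay below all of them. RvD6 differed from vehicle by -0.66 ± 0.28 on the log2 scale (SE, 95% interval -1.24 to -0.08, adjusted p = 0.311 in edgeR). It was -0.79 without RvD6 replicates 8 and 9 and -0.42 scaled to the pan-neuronal genes. The opposite-strand gene Rsrc1, with 6578 reads in all against 1864 for Shox2, overlaps 4.62% of the Shox2 exonic length.

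Runx1 and Runx3, the Runt-domain factors that divide pain-sensing from position-sensing neurons, showed the smallest differences. Runx1, which shares 0.881% of its exonic length with the uncounted opposite-strand gene Gm26626, gave 41.3, 36.3, 29.8, 18.4 and 25.7 CPM in vehicle, 27.1, 52.0, 16.3, 27.0 and 30.1 CPM in RvD6 and 30.9, 43.9, 17.6, 19.2 and 35.2 CPM in RvD6si. Runx3 gave 6.02, 12.6, 6.11, 7.54 and 7.78 CPM in vehicle, 9.19, 12.5, 5.63, 4.44 and 9.29 CPM in RvD6 and 4.04, 13.8, 10.2, 5.33 and 7.68 CPM in RvD6si. Ranges of all 3 groups lay over one another for both genes. For Runx1 the log2 differences were -0.05 for RvD6si from vehicle (-0.69 to 0.60) and 0.01 for RvD6 from vehicle (-0.63 to 0.66). For Runx3 both were 0.04, with intervals of -0.74 to 0.82. Both genes are also active in blood cells. RvD6 replicate 7, with the highest sum of granulocyte markers of all 15 ganglia, had the highest Runx1 value, while RvD6si replicate 15 and RvD6 replicate 10, the next in that sum, were at 35.2 and 30.1 CPM, within the range of vehicle.

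**Figure D4:**
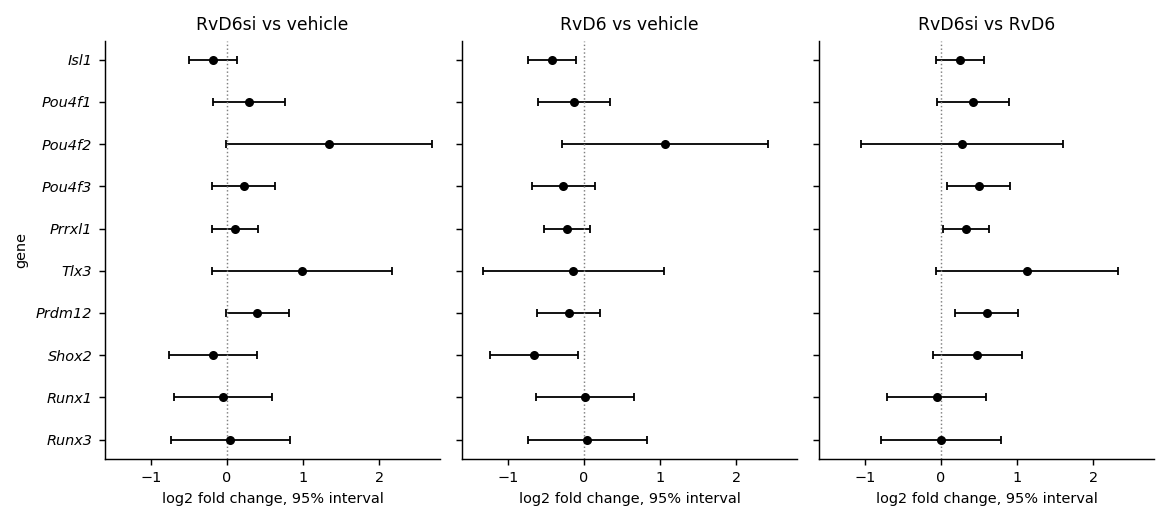
Log2 fold change (x axis, points) with 95% interval (bars) of the 10 genes in the 3 comparisons, fitted over 15 ganglia. Intervals leave out 0 for Isl1 and Shox2 in RvD6 against vehicle and for Pou4f3, Prrxl1 and Prdm12 in RvD6si against RvD6, and no gene passed the adjusted threshold.

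Across the 10 genes, the log2 fold change was above 0 for 7 in RvD6si against vehicle, for 3 in RvD6 against vehicle and for 9 in RvD6si against RvD6. The medians were 0.16, -0.17 and 0.38 on the log2 scale, against 0.02, 0.02 and -0.00 over all genes tested. The 15 pan-neuronal genes had medians of 0.06, -0.28 and 0.33 in the same comparisons. These 15 genes were not a fixed reference. In edgeR, 1 of them was called higher for RvD6si against vehicle, where 0.67% of all genes passed. At an unadjusted p below 0.05, 3 were higher and 2 lower in that comparison, beside the shares of all genes given above. For RvD6 against vehicle 0 of the 15 were higher and 6 lower, and for RvD6si against RvD6 4 were higher and 0 lower. Scaling to these genes moved the median of all genes to -0.09, 0.29 and -0.37 and that of the 10 genes to 0.04, 0.06 and 0.03, so that the median for RvD6 against vehicle changed sign. With the length trend removed, the median of the 10 genes for RvD6si against vehicle was 0.10. Under the pan-neuronal scaling, Isl1, Pou4f2, Runx3 and Prrxl1 turned to the lower side in RvD6si against RvD6, at -0.09, -0.05, -0.36 and -0.01. The direct test of the 2 stereoisomers, 1 pair of compounds on one schedule, therefore gave no called difference in any of the 10 genes, and its intervals ran from -1.05 to 2.32 over the genes. They were narrowest for Prrxl1 and widest for Pou4f2, so a difference of more than 2-fold in either direction was outside the interval for Isl1, Pou4f1, Pou4f3, Runx1, Runx3 and Prrxl1 but not for the rest.

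Other transcription factors of the sensory lineage were tested in the same way. Of 32 listed, 23 were tested, and edgeR called 0 in each comparison. At an unadjusted p below 0.05, 2 were higher and 0 lower for RvD6si against vehicle, where all genes gave 8.69% and 7.3%. For RvD6 against vehicle 1 was higher and 1 lower, where all genes gave 7.63% and 5.99%. For RvD6si against RvD6 5 were higher and 1 lower, where all genes gave 4.18% and 4.64%. The median log2 fold changes of the 23 factors were 0.23, -0.06 and 0.28 in the order RvD6si and RvD6 against vehicle, then RvD6si against RvD6. Scaled to the pan-neuronal genes they were 0.11, 0.21 and -0.06, with the sign changed in the last 2. The first was 0.06 with the length trend removed, and the second was 0.01 without RvD6 replicates 8 and 9 and 0.09 with the granulocyte score as a covariate. Six4, a homeobox gene of the placodes, was 24.6 ± 5.62 CPM in vehicle and 43.2 ± 11.0 in RvD6si (log2 0.81, adjusted p = 0.132 in edgeR and 0.0410 in DESeq2). Ebf1, active in both neurons and B cells, was 81.0 ± 8.17 CPM in vehicle and 104 ± 7.55 in RvD6si (log2 0.37, adjusted p = 0.139 in edgeR and 0.0148 in DESeq2). Its RvD6si ganglia lay above vehicle without overlap, as for 2.45% of all genes tested. Isl2, the paralog of Isl1, was 225 ± 49.2 CPM in vehicle and 142 ± 30.7 in RvD6 (log2 -0.66, adjusted p = 0.143 in edgeR and 0.0288 in DESeq2). Isl1 and Isl2 thus both had their lowest mean in RvD6, and only Isl2 passed in DESeq2. Of the others with the smallest p, Etv1 had log2 values of 0.34 for RvD6si against vehicle and 0.40 for RvD6si against RvD6, and Zeb2 and Bcl11a of 0.58 and 2.06 for RvD6 against vehicle, with adjusted p between 0.267 and 0.481 in edgeR.

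Genes that mark subtypes of mature sensory neurons, among them receptors, channels and peptides, also gave 0 calls in edgeR, in 25 tested of 28 listed. At an unadjusted p below 0.05, 3 were higher and 3 lower for RvD6si against vehicle, where all genes gave 8.69% and 7.3%. For RvD6 against vehicle 1 was higher and 5 lower, where all genes gave 7.63% and 5.99%. For RvD6si against RvD6 5 were higher and 1 lower, where all genes gave 4.18% and 4.64%. The median log2 fold changes of the subtype genes were 0.13, -0.16 and 0.20, and scaled to the pan-neuronal genes 0.01, 0.12 and -0.17, with the sign changed in the last 2. Tac1, which encodes substance P, was 422 ± 78.8 CPM in vehicle, 318 ± 33.1 in RvD6 and 301 ± 29.5 in RvD6si. All its RvD6si ganglia lay below vehicle, as for 2.46% of all genes tested. The log2 differences of Tac1 from vehicle were -0.49 for RvD6si (adjusted p = 0.0813 in edgeR and 0.0108 in DESeq2) and -0.41 for RvD6 (0.199 in edgeR and 0.0978 in DESeq2). Calcb, a CGRP gene, was 164 ± 11.9 CPM in vehicle, 115 ± 24.1 in RvD6 and 130 ± 9.22 in RvD6si (log2 -0.52 for RvD6, adjusted p = 0.143 in edgeR and 0.0223 in DESeq2). All its ganglia of either lipid lay below vehicle, as for 2.46% of all genes tested with RvD6si and 1.62% with RvD6.

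Ret, Trpm8 and Mrgprd, receptor and channel genes named by the same rule, had their highest mean in RvD6si. Ret, a receptor of GDNF-family ligands and a target of Runx1 in nonpeptidergic neurons, was 267 ± 45.6 CPM in vehicle, 273 ± 53.3 in RvD6 and 379 ± 60.5 in RvD6si (log2 0.51 for RvD6si against vehicle, adjusted p = 0.117 in edgeR and 0.0316 in DESeq2). Trpm8, the cold channel, was 23.5 ± 2.81, 27.3 ± 9.32 and 40.5 ± 12.2 CPM (log2 0.78, adjusted p = 0.128 in edgeR and 0.0355 in DESeq2). Ret and Trpm8 of RvD6si lay above vehicle without overlap, an arrangement seen for 2.45% of all genes tested. The gaps were narrow. The lowest RvD6si and highest vehicle values were 314 and 313 CPM for Ret and 27.5 and 27.1 CPM for Trpm8. Of the 25 subtype genes tested, 2 lay above vehicle in this way and 2 below. Mrgprd, a receptor of nonpeptidergic skin afferents, was 132 ± 17.3, 98.1 ± 20.7 and 147 ± 38.3 CPM, with a log2 difference of 0.58 and an adjusted p of 0.289 for RvD6si against RvD6 in edgeR.

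Variation among ganglia of the same treatment was compared between the 10 genes. Log2 CPM was centred on its group mean, the 15 ganglia were pooled, and 45 pairs were compared, with p from 100000 permutations within groups. Prrxl1 and Prdm12 gave the closest pair, at Pearson r = 0.70 (p = 0.0133, adjusted p = 0.377, permutation test) and Spearman rho = 0.65 (p = 0.0186, adjusted p = 0.289), with r = 0.61 without the 2 ganglia farthest from the median of Prrxl1. Isl1 gave r = 0.63 with Prrxl1 and 0.62 with Prdm12 (adjusted p = 0.377 each, permutation test), and without the 2 farthest ganglia r was 0.54 and 0.71. Pou4f1 and Runx1 gave r = 0.58 and rho = 0.64 (adjusted p = 0.413 and 0.289, permutation test). None of the 45 pairs passed after adjustment. Isl1, Prrxl1 and Prdm12 are the genes whose promoters are printed above, 1 of them with a TGTGGT match and 2 without.

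**Figure D5:**
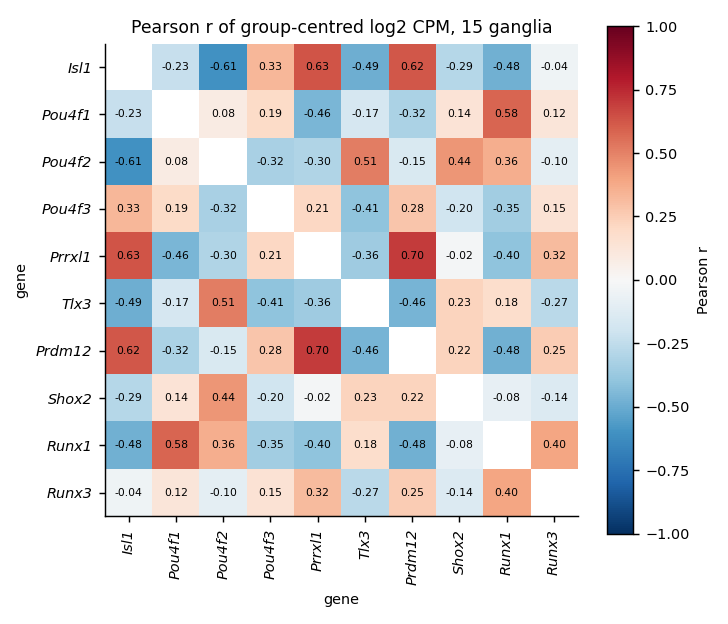
Pearson r between each pair of the 10 genes across 15 ganglia, from log2 CPM centred on the mean of each treatment group (color and printed value). Isl1, Prrxl1 and Prdm12 form a block of positive values from 0.62 to 0.70, and Isl1 and Pou4f2 give -0.61.

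The 10 genes were also compared with the trend of each library on gene length. In each library the deviation of log2 CPM from the gene mean was regressed on log2 gene length, and the slope ran from -0.107 to 0.141. Against this slope, group-centred Isl1 gave r = -0.63 and rho = -0.64 (p = 0.0211 and 0.0184, adjusted p = 0.211 and 0.184 over 10 genes, permutation test), with r = -0.75 without the 2 ganglia farthest from the median slope. Prdm12 gave r = -0.49 and Prrxl1 -0.24, and Pou4f3 gave -0.53. Values of 0.33 to 0.52 were seen for Pou4f1, Shox2, Pou4f2 and Runx1, and Tlx3 and Runx3 gave 0.14 and -0.06, with no gene passing after adjustment. With the trend on length removed, RvD6 differed from vehicle in Isl1 by -0.44 and RvD6si from RvD6 in Prdm12 by 0.59 on the log2 scale, close to the values given above. Against the mean of the 15 pan-neuronal genes, within groups, the smallest adjusted p of the 10 genes was 0.406 (permutation test).

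The genes with the profiles closest to each factor over the 15 group-centred ganglia are given as a description, with Pearson r and no test. For Isl1 they were Ndufv1 (0.90), Hspd1 (0.90) and Hspbp1 (0.89), and for Prdm12 Cdk5, Acot7 and Eno1 (0.93 each). Prrxl1 was nearest to Ralgds (0.92), Gm8401 (0.90) and Tmem246 (0.90). Pou4f1 and Runx1 had their own neighbors: Tnrc6a (0.97), Grin3a (0.89) and Unc80 (0.87) for Pou4f1, and Kansl1 (0.94), Npepps (0.93) and Uso1 (0.92) for Runx1. Runx3 was nearest to Impdh2 (0.90), Stk11ip (0.83) and Vdr (0.83), and Shox2 to Topors (0.86), Mapk8ip3 (0.85) and Atp2b3 (0.83). For the remaining POU genes and Tlx3 the neighbors were Abi3bp, Plekhg2 and Enkd1 (0.83 each) for Pou4f2, Smim18 (0.82), Gm43560 (0.80) and Bax (0.79) for Pou4f3, and Gm12482 (0.89), 1700096K18Rik (0.85) and Slc25a42 (0.84) for Tlx3.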

How the data were processed

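Messenger RNA of 15 right TG was made into libraries with an adapted Smart-seq2 protocol and sequenced for 75 cycles. The authors aligned reads with Rsubread to GRCm38 (GENCODE release 22) and deposited raw read counts per gene from featureCounts (version 1.5.0-p1 in the header), unstranded and without reads placed in several genes. The table also gives gene lengths. Symbols came from GENCODE release 21, which names 99.7% of the identifiers, and promoters from RefSeq.

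Samples were grouped by their treatment labels. No batch or separate-culture label was given, each label stands for a ganglion, and no 2 libraries agreed within sampling noise (chi-square per degree of freedom 11.3 to 49.2 within groups). The 10 genes, the gene lists and the tests were chosen with earlier results of these data known. Counts were analysed in R 4.3.3 with edgeR 4.0.16 (quasi-likelihood, all 15 samples in one fit, TMM, filterByExpr with a minimum count of 10 and total of 15, 16567 genes kept), after the fitting was tested on simulated data. DESeq2 1.42.0, as used by the authors, served as an alternative. TPM were computed from the deposited counts and lengths, and the slopes on length from log2 CPM with a prior count of 2. Correlations used SciPy 1.17.1 and NumPy 2.4.6 in Python 3.11.15. Named genes were the 10 factors, the 3 genes of each list with the smallest p in each comparison, and the 3 genes closest to each factor in profile. Genes called by DESeq2 were named in addition, and 1 gene that the rule named is not reported here. Other alternatives were edgeR with only the 2 groups compared, RLE normalization, scaling to 15 pan-neuronal genes, no filter, at least 10 counts in every sample, a lowess length trend (span 0.3) removed, and each of the 15 samples left out. Added after seeing the data were fits without RvD6 replicates 8 and 9, without vehicle replicate 4 and RvD6si replicate 15, and with a granulocyte score.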

Additional observations from a re-analysis of the deposited data

Results flagged for a closer look

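In 30 groups of 5 ganglia (10 genes in 3 treatments), 3 values were far from the rest of their group by Dixon's ratio of gap to range, with a critical ratio of 0.71. Chance gives about 1 in 20 such groups, or 1.5 of 30. All 3 were the highest of the vehicle group and each was another ganglion: Isl1 at 230 CPM in replicate 5 (nearest 181, ratio 0.719), Pou4f1 at 54.9 CPM in replicate 1 (nearest 43.6, ratio 0.82) and Runx3 at 12.6 CPM in replicate 2 (nearest 7.78, ratio 0.734). Without vehicle replicate 5, Isl1 in RvD6 against vehicle was -0.33 on the log2 scale.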

How the results depend on the processing

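The 30 fold changes of the 10 genes were recomputed under 26 alternatives, 774 values in all. None passed the threshold, and 4 had no adjusted p: Pou4f2 and Tlx3 in RvD6si against vehicle, in both DESeq2 fits. The smallest adjusted p was 0.134 (edgeR, Isl1 in RvD6 against vehicle without RvD6 replicate 6), where the range over that result's alternatives reached 0.663. The count of the 10 genes called stayed at 0 under every alternative. The filter of 10 counts in every sample kept 8 of them and left out Pou4f2 and Tlx3. The ranks of the levels per length kept their places in all 160 values.

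Only DESeq2 added calls in the 2 other lists. For RvD6si against vehicle it called 2 lineage factors (Six4 and Ebf1) with either set of samples, and 3 subtype genes with all 15 samples (Ret, Tac1 and Trpm8) or 4 with the 2 groups compared (Calcb in addition). For RvD6 against vehicle it called 1 lineage factor (Isl2) and 1 subtype gene (Calcb) with either set of samples. The cause was not tested. DESeq2 also called many genes outside these lists, in the numbers given with the comparisons above. The share of the genes it tested that these numbers make up is not given here. The calls of DESeq2 are therefore not read as a result about the lists.

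Of the 30 fold changes, 17 kept their sign throughout, and 46 values had the other sign, 24 of them with 1 ganglion left out. Scaled to the pan-neuronal genes, RvD6si against RvD6 gave Isl1 -0.0942, Pou4f2 -0.0453, Prrxl1 -0.00772 and Runx3 -0.36, RvD6si against vehicle gave Prrxl1 -0.00817 and Runx3 -0.0777, and RvD6 against vehicle gave Pou4f1 0.12, Tlx3 0.17 and Prdm12 0.0042. With the length trend removed, RvD6 against vehicle gave Runx1 -0.16, Runx3 -0.0331 and Tlx3 0.0103, and Runx3 was -0.0642 for RvD6si against vehicle and -0.0312 against RvD6. Runx3 in RvD6si against RvD6, at 0.0003 in the report's fit, was also -0.0109 in DESeq2, -0.0107 with RLE, -0.0252 with at least 10 counts in every sample, -0.32 without RvD6 replicates 8 and 9 and -0.0581 with the granulocyte score. Runx1 in RvD6 against vehicle was -0.12 without vehicle replicate 4 and RvD6si replicate 15 and -0.10 with the granulocyte score, which gave 0.0562 for RvD6si against RvD6. With 1 ganglion left out, Runx1 ran from -0.24 to 0.0900, -0.27 to 0.17 and -0.25 to 0.22 for RvD6si and RvD6 against vehicle and for RvD6si against RvD6, Runx3 from -0.23 to 0.26, -0.16 to 0.26 and -0.27 to 0.20, and Tlx3 in RvD6 against vehicle from -0.45 to 0.0332. The cause of these turns was not tested. No paired analysis was possible because the 3 groups share no replicate numbers. Depth limits Tlx3 and Pou4f2 most, with 3 and 5 reads in their lowest libraries.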
